A study of Mus musculus with 17 samples.

Results

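The 10 genes described here are long noncoding RNA genes of the mouse brain that are abundant or imprinted: *Malat1*, *Neat1*, *Meg3*, *Rian*, *Mirg*, *Miat*, *Snhg11*, *Snhg14*, *Peg13* and *Pantr1*. They were chosen by name, and their transcript rows were summed to 10 of the 41015 genes in the count tables. The study compared brain RNA of mice with a transgene to overexpress HAR1A with that of normal mice, both on a C57BL/6 background. HAR1A is itself a long noncoding RNA gene, known from the human genome for its fast-changed sequence. The transgene group held 6 libraries and the control group 11, named here by a number in order of deposition. The labels name neither the promoter that drives the transgene nor the number of founder lines, and they leave out brain region, age, sex and whether each library is a separate animal. P-values therefore measure the spread between these libraries, which may be technical. Lane 4 of a single flow cell held all 6 transgene libraries and controls 7, 8 and 11. Lane 8 of that flow cell held controls 1, 2, 3, 5, 9 and 10, lane 2 held control 4, and control 6 came from another flow cell.

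Long noncoding RNAs are transcribed and usually spliced like messenger RNAs but are not known to be translated into protein. Several of these genes act at the chromosome they are made from, others build bodies within the nucleus, and others are known mainly as the source of small RNAs cut from their introns or exons. *Meg3*, *Rian*, *Mirg*, *Snhg14* and *Peg13* are imprinted, meaning that they are read from the copy inherited from a single parent, and all 5 are known to be transcribed in neurons.

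Assigned counts ranged from 17067407 to 22642441 per library, and HAR1A itself was not analysed here. The 7 neuron markers added up to between 4045 and 5447 CPM (a gene's count scaled by library size and composition, the unit of levels below) in the transgene libraries and to between 4013 and 5994 CPM in the controls, and none of them was at 0 throughout a group. Of these 7 markers 2 were higher and 1 was lower in the transgene libraries. Regional markers differed between the groups. All 9 markers of striatal projection neurons were higher and summed to between 1129 and 3080 CPM in transgene libraries, against 294 to 565 CPM in controls. Of 9 telencephalon genes 8 were higher, with sums of 711 to 1033 CPM in transgene libraries and 70.9 to 573 CPM in controls. All 12 *Hox* genes, which mark hindbrain and cord, were lower, with sums of 0.0464 to 0.634 CPM in transgene libraries and 15.98 to 306 CPM in controls, and *Hoxa2*, *Hoxb2*, *Hoxd3* and *Hoxd4* were at 0 in all transgene libraries. All 8 cerebellar granule cell genes were lower, with sums of 103 to 554 CPM in transgene libraries and 144 to 3042 CPM in controls. Of the glial lists, 4 of 6 astrocyte genes were lower (sums of 1365 to 1583 CPM in transgene libraries and 2278 to 2847 CPM in controls), as were 6 of 6 oligodendrocyte genes (1024 to 2350 and 1276 to 5409 CPM), and 2 of 4 tested microglia genes were higher (213 to 280.3 and 128 to 327 CPM). Of the remaining lists, 2 of 4 tested endothelium genes were lower (133 to 203 and 166 to 253 CPM), and none of 5 tested choroid plexus genes was called (23.9 to 1870 and 72.1 to 4064 CPM). The part of these regional and cell type differences in the changes below was not tested, and in bulk tissue fewer cells of a type and less RNA per cell cannot be told apart.

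Over all 17 libraries, *Pantr1*, *Miat* and *Rian* were higher in the transgene libraries, *Neat1*, *Snhg14* and *Peg13* were lower, and *Malat1*, *Meg3*, *Mirg* and *Snhg11* were not called (edgeR quasi-likelihood test, Benjamini-Hochberg adjusted p under 0.05 over all tested genes). Of all 19136 tested genes 47.4% were called in this comparison (23% higher and 24.4% lower), so the share of 6 in 10 stands near a high background. The same shares are the background for the counts of called genes in every gene list of this text. The median log2 fold change was -0.02 over the 10 genes and -0.05 over all tested genes. Of the called genes 48.6% were higher; scaling by library size alone lowered the median of all genes to -0.16 and that share to 35.6%, and turned the direction of none of the 10. Within lane 4, where 25.6% of 19261 genes were called, *Pantr1* and *Miat* were again higher and *Neat1* lower, and the other 7 were not called. The lane 4 comparison uses the same 6 transgene libraries and 3 of the same controls, so it is not a separate replication. The levels in each library and the fold changes are plotted for all 10 genes.

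**Figure D1:**
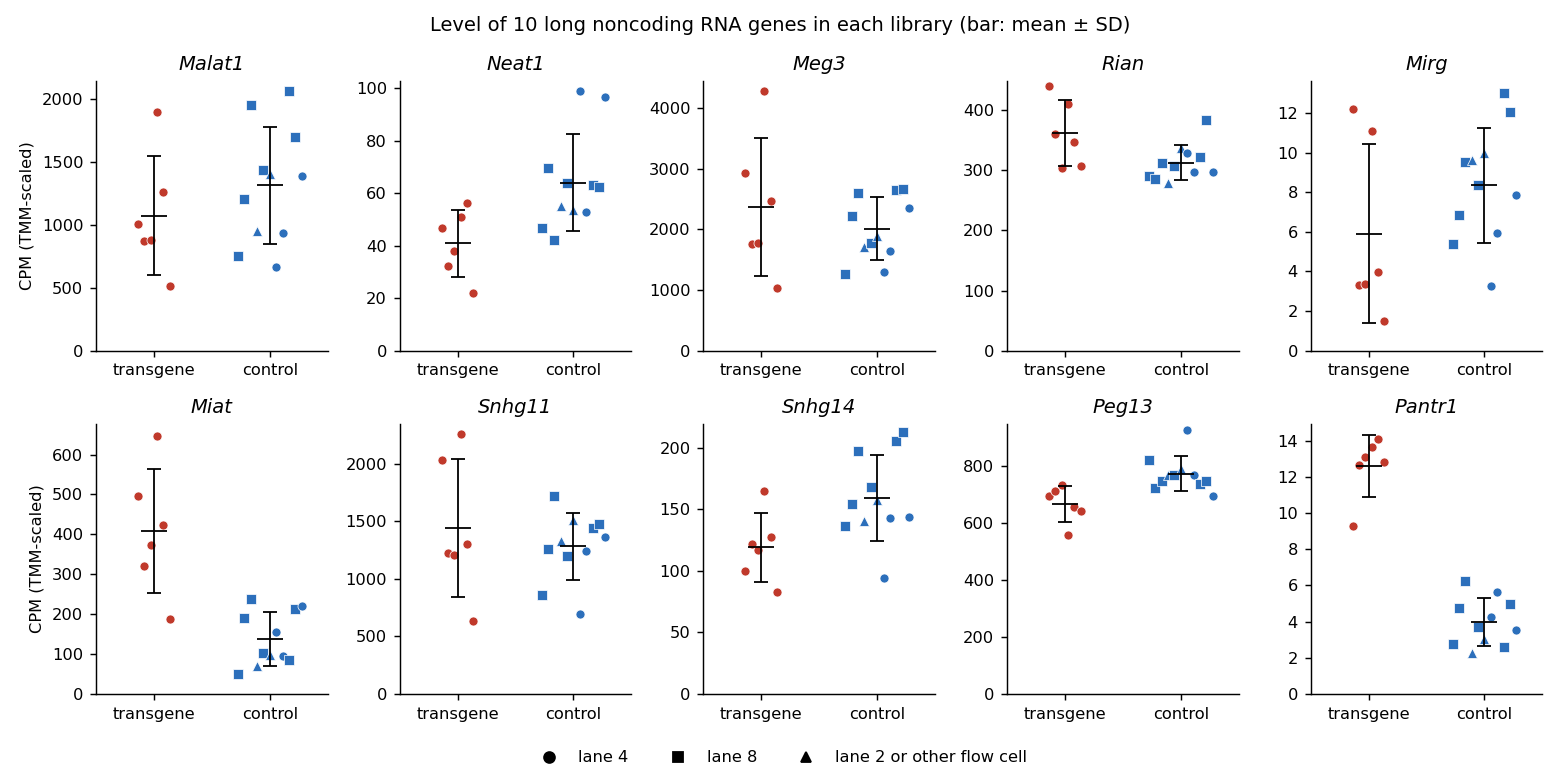
Level of each gene in CPM after TMM scaling (vertical axes, linear from 0) in the 6 transgene libraries (red, left) and the 11 controls (blue, right); each point is a library, its shape gives the sequencing lane, and bars show the mean ± SD. *Pantr1* is the only gene of the 10 whose groups do not overlap, and *Malat1*, *Meg3*, *Mirg*, *Miat* and *Snhg11* spread widely within the transgene group.

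**Figure D2:**
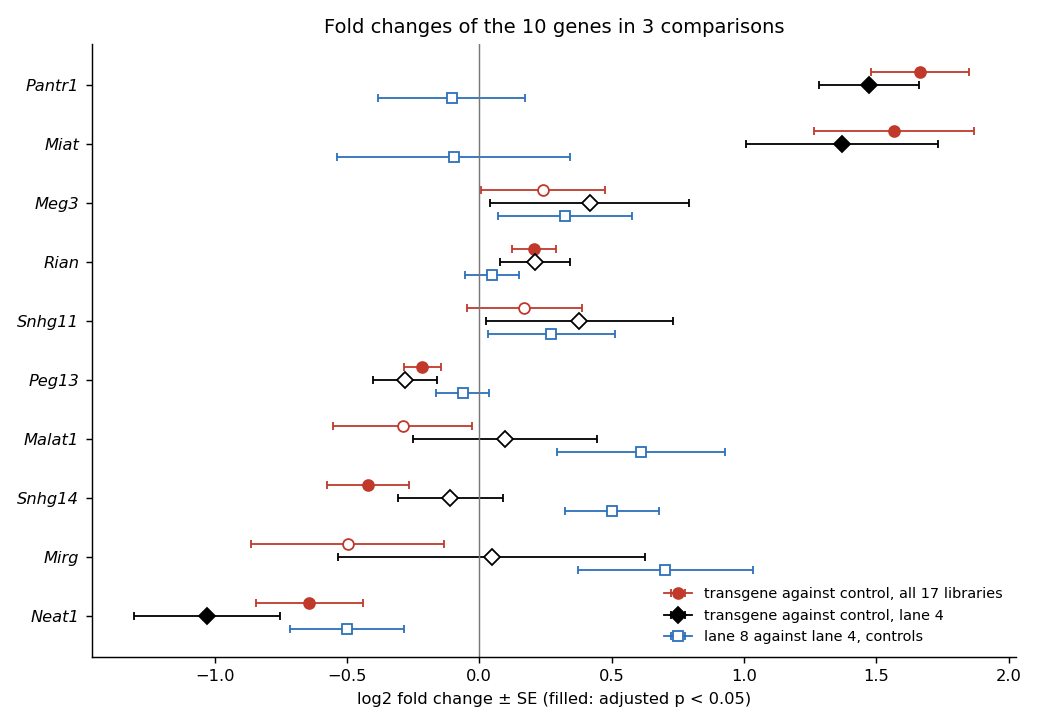
Log2 fold change ± SE (horizontal axis) of the 10 genes for transgene against control over all libraries (red circles), transgene against control within lane 4 (black diamonds) and lane 8 against lane 4 among controls (blue squares); filled symbols have an adjusted p under 0.05. *Pantr1*, *Miat* and *Neat1* are filled in both transgene comparisons and no gene is filled in the control comparison.

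Levels of different genes can be set side by side only per length, here as CPM per kb of exonic bases covered by a single deposited row. Counts also came from beyond such bases, so the order is rough. For example, the *Rian* row ENSMUST00000182737.7 had 1823 counts and 0 such bases. By this measure *Snhg11* (246 ± 102 in transgene libraries and 219 ± 50.1 in controls, SD, n = 6 and 11), *Malat1* (214 ± 94.0 and 262 ± 93.1), *Meg3* (192 ± 92.2 and 162 ± 42.0) and *Peg13* (141 ± 13.4 and 163 ± 13.0) formed the top of the order, and their ranges over libraries overlapped in both groups. *Miat* followed with 55.7 ± 21.3 in transgene libraries and 18.8 ± 9.13 in controls, and *Rian* with 36.0 ± 5.46 and 31.1 ± 2.97, so that these 2 genes took each other's place in the order of means between the groups. The others were low: *Snhg14* had 6.93 ± 1.61 in transgene libraries and 9.28 ± 2.03 in controls. *Neat1* had 2.31 ± 0.720 and 3.61 ± 1.04, *Mirg* 2.51 ± 1.92 and 3.55 ± 1.23, and *Pantr1* 3.76 ± 0.507 and 1.19 ± 0.390 in transgene libraries and control libraries. The ranges of *Neat1*, *Mirg* and *Pantr1* overlapped within the transgene group. *Pantr1* and *Neat1* were thus not abundant in these counts, although both are known from the brain. All *Neat1* counts lay on its long row ENSMUST00000173672.1, and the 2 shorter rows at its 5′ end had 0. Reads shared by these rows were not counted, so the level of *Neat1* leaves out that part.

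*Pantr1* (mm10 chromosome 1, 42590782 to 42694842, minus strand) is transcribed beside and away from *Pou3f3*, a transcription factor gene of cortical progenitors and neurons. It had between 9.31 and 14.1 CPM in the transgene libraries, with a median of 13.0, and between 2.26 and 6.23 CPM in the controls, with a median of 3.68. Every transgene library lay above every control, and transgene 1 was the lowest of its group at 9.31 CPM. Groups without overlap and higher in transgene made up 9.46% of all tested genes. The log2 fold change was 1.67 ± 0.18 (SE; 3.17-fold), with an edgeR adjusted p of 1.11e-06. Within lane 4 controls 7, 8 and 11 had 4.23, 5.65 and 3.56 CPM, and the fold change was 1.47 ± 0.19 (edgeR adjusted p = 0.000389), again without overlap, as for 14.1% of the genes tested there. These levels rest on 175 to 300 counts per transgene library and 44 to 115 per control. Of 5 *Pantr1* transcript rows 4 were tested, and all 4 were higher, by log2 1.16 to 1.92. The 3 highest were ENSMUST00000186656.6 (6.75 ± 1.04 CPM in transgene libraries and 1.78 ± 0.746 in controls), ENSMUST00000181660.7 (2.91 ± 0.759 and 0.831 ± 0.294) and ENSMUST00000177136.2 (1.51 ± 0.501 and 0.673 ± 0.243), and the groups did not overlap for the first 2 of these, as for 9.87% of all rows with the transgene group higher. *4930420N18Rik* is annotated on the opposite strand within the gene, and without a stated strand setting reads of the pair cannot be told apart.

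Genes around *Pantr1* were higher in 4 of 7 tested and lower in none, with a median log2 fold change of 0.62 beside -0.05 over all tested genes. *Pou3f3* itself had 320 ± 53.7 CPM in transgene libraries and 200.2 ± 37.0 CPM in controls (log2 fold change 0.68 ± 0.12, edgeR adjusted p = 0.00017), and its groups did not overlap. The change of *Fhl2*, which encodes a LIM-domain protein, was 2.43 ± 0.35 (edgeR adjusted p = 1.73e-05). *Gpr45*, an orphan receptor, and *Nck2*, an adaptor protein, were higher by 0.68 ± 0.15 and 0.62 ± 0.09 on the log2 scale. Within lane 4, *Fhl2* (2.36 ± 0.27), *Nck2* (0.77 ± 0.15) and *Pou3f3* (0.56 ± 0.14) were called and *Gpr45* was not (edgeR adjusted p = 0.254). With the telencephalon marker sum *Pantr1* had r = 0.48 in the 6 transgene libraries (exact permutation p = 0.368). In the 11 controls Pearson r was 0.16 (permutation p = 0.678; Spearman rho = 0.28, permutation p = 0.402; adjusted p = 0.791 over 70 relations). Within the 6 lane 8 controls r was 0.78 (exact permutation p = 0.0722, adjusted p = 0.46). With the *Hox* sum *Pantr1* had r = 0.11 in transgene libraries (exact permutation p = 0.729) and r = -0.53 in the 11 controls (permutation p = 0.0918, adjusted p = 0.191). The part of regional make-up in the change of *Pantr1* was not tested.

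*Miat* (chromosome 5, 112213228 to 112229395, minus strand), also called Gomafu, is a spliced RNA that stays in the nucleus of neurons and is known for repeats of the letters UACUAAC, the branch point signal that the splicing factor SF1 binds. The letters TACTAAC, searched on the transcript strand only, occur 6 times in the 9163 bases of its row ENSMUST00000182953.7 in GENCODE M21. Of 62322 deposited rows found there 4.76% hold at least 1 copy and 2 rows, that of *Miat* included, hold 6 or more. Longer rows hold the letters more often: of the 6868 longest of these rows 14.3% hold at least 1 copy. Among the rows of the other 9 genes a single copy occurs, in *Neat1*. The stretch with the densest repeats is shown to let a reader see them, with TACTAAC in capitals; it lies in 1 exon at chr5:112217319-112217518 (GRCm38, minus strand).

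Miat TACTAAC stretch: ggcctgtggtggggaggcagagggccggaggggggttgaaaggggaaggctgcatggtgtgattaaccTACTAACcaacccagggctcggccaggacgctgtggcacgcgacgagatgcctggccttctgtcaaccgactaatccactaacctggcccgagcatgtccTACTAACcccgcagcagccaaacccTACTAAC

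*Miat* had between 189 and 646 CPM in the transgene libraries, with a median of 399, and between 50.9 and 238 CPM in the controls, with a median of 103. Transgene 6 was the lowest of its group and lay below controls 2, 3, 10 and 11, so the groups overlapped through that library. The log2 fold change was 1.57 ± 0.30 (2.96-fold), with an edgeR adjusted p of 0.000327. Within lane 4 controls 7, 8 and 11 had 154, 95.1 and 220 CPM, and the fold change was 1.37 ± 0.36 (edgeR adjusted p = 0.0187). That call rests on the 3 controls: without control 8 the fold change was 1.11 with an adjusted p of 0.0573. Of the genes around *Miat* and *Snhg11* 4 of 13 tested were higher and 1 lower, and their median was 0.08 on the log2 scale. *Asphd2*, next to *Miat*, had 175 ± 19.3 CPM in transgene libraries and 89.7 ± 14.9 CPM in controls without overlap (log2 fold change 0.96 ± 0.10, edgeR adjusted p = 7.13e-07). *Crybb1*, a crystallin, and *Tpst2*, a sulfotransferase, were higher by 1.22 ± 0.23 and 0.39 ± 0.13, and *Ppp1r16b*, a phosphatase regulatory subunit near *Snhg11*, was lower (-0.39 ± 0.13). Within lane 4 *Asphd2* and *Crybb1* were called, and *Tpst2* and *Ppp1r16b* were not, with edgeR adjusted p-values of 0.108 and 0.334.

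Genes for RNA-binding proteins known to associate with *Miat* differed in direction. *Celf3*, a splicing regulator of neurons, had 76.1 ± 15.4 CPM in transgene libraries and 26.6 ± 10.3 CPM in controls (log2 fold change 1.52 ± 0.24, edgeR adjusted p = 4.24e-05), and its groups did not overlap. *Qk*, an RNA-binding protein gene abundant in glia, was lower, with 319 ± 43.9 CPM in transgene libraries and 428 ± 96.7 CPM in controls (-0.42 ± 0.13, edgeR adjusted p = 0.015). *Sf1* had 32.5 ± 2.60 CPM in transgene libraries and 34.2 ± 4.94 CPM in controls and was not called (-0.08 ± 0.10, edgeR adjusted p = 0.544). Lane 4 gave 1.54 ± 0.28 for *Celf3* and -0.65 ± 0.18 for *Qk*, both called.

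*Malat1* (chromosome 19, 5795690 to 5802672, minus strand) gathers in nuclear speckles, the stores of splicing factors. Its neighbour *Neat1* (chromosome 19, 5824708 to 5845478, minus strand) is the backbone of paraspeckles, nuclear bodies in which the RNA-binding proteins SFPQ and NONO collect. *Malat1* had between 516 and 1903 CPM in the transgene libraries, with a median of 946, and between 663 and 2068 CPM in the controls, with a median of 1391. The groups overlapped almost fully, with transgene 6 the lowest and transgene 4 the highest of their group and controls 7 and 9 at the ends of theirs. Its log2 fold change was -0.29 ± 0.26 over all libraries (edgeR adjusted p = 0.385) and 0.10 ± 0.35 within lane 4 (edgeR adjusted p = 0.873). With the share of reads outside any feature as a covariate, an alternative chosen after seeing the data, *Malat1* was called higher, by 0.30 ± 0.06 over all libraries (edgeR adjusted p = 0.00123) and 0.31 ± 0.07 within lane 4 (edgeR adjusted p = 0.0142).

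*Neat1* had between 21.9 and 56.3 CPM in the transgene libraries, with a median of 42.4, and between 42.1 and 99.0 CPM in the controls, with a median of 62.3. Transgene 2, 3 and 6 lay below every control, and the others fell among the lower controls. Its log2 fold change was -0.64 ± 0.20 (edgeR adjusted p = 0.0135). All *Neat1* values here come from its long row alone, without the reads it shares with the shorter rows. In lane 4, controls 7, 8 and 11 had 99.0, 52.7 and 96.6 CPM, and the fold change was -1.03 ± 0.28 (edgeR adjusted p = 0.0195). Controls 7 and 11 were also the lowest controls in granule cell markers, with sums of 144 and 1033 CPM beside 2082 to 3042 CPM in the other 9, and the highest in *Hox* genes, with sums of 301 and 306 CPM. Without control 7 the lane 4 fold change was -0.87 (adjusted p = 0.0719), and without control 11 it was -0.91 (adjusted p = 0.0785). With the granule cell sum *Neat1* had r = 0.23 in the 6 transgene libraries (exact permutation p = 0.66) and r = -0.77 in the 11 controls (permutation p = 0.0006, adjusted p = 0.007 over 70 relations; Spearman rho = -0.74, permutation p = 0.0125, adjusted p = 0.125). Leaving out the 2 controls farthest from the median sum gave r = -0.56, and the 6 lane 8 controls gave r = -0.65 (exact permutation p = 0.215). With the oligodendrocyte sum *Neat1* had r = 0.76 in transgene libraries (exact permutation p = 0.0875, adjusted p = 0.247) and r = 0.76 in controls (permutation p = 0.00743, adjusted p = 0.0565; rho = 0.62; 0.40 without the 2 farthest).

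Genes around the *Malat1* and *Neat1* pair were lower in 5 of 11 tested and higher in none, with a median log2 fold change of -0.26. *Ltbp3*, a binding protein of latent TGF-beta, had 107 ± 11.9 CPM in transgene libraries and 195 ± 30.4 CPM in controls (-0.87 ± 0.10, edgeR adjusted p = 2.36e-06), and its groups did not overlap, as for 5.4% of all tested genes with the transgene group lower. *Cdc42ep2*, an effector of the small GTPase CDC42, changed by -0.92 ± 0.19, *Frmd8*, a FERM-domain protein, by -0.49 ± 0.14 and *Dpf2*, a chromatin remodelling subunit, by -0.40 ± 0.10. Within lane 4 *Ltbp3*, *Cdc42ep2* and *Frmd8* were called and *Dpf2* was not (edgeR adjusted p = 0.145). Of 24 tested genes for paraspeckle and speckle proteins, 4 were higher and 7 lower, with a median of -0.14. Over all tested genes 23% were higher and 24.4% lower, so these counts stand near the background. *Sfpq* (276 ± 52.9 CPM in transgene libraries and 308 ± 60.8 CPM in controls) and *Nono* (229 ± 10.8 and 222 ± 14.7 CPM) were not called, with edgeR adjusted p-values of 0.343 and 0.509. The paraspeckle protein gene *Pspc1* was higher, with 26.0 ± 1.52 CPM in transgene libraries and 20.8 ± 2.14 CPM in controls (0.32 ± 0.07, edgeR adjusted p = 0.00167). Within lane 4 *Pspc1* was not called (0.24 ± 0.10, edgeR adjusted p = 0.100). *Srsf1*, a splicing factor of the speckles, and *Rbm14*, a paraspeckle protein, were lower by log2 values of -0.54 ± 0.14 and -0.55 ± 0.18, and neither was called within lane 4, with edgeR adjusted p-values of 0.322 and 0.574.

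*Meg3*, *Rian* and *Mirg* lie in this order on the plus strand of chromosome 12 (109541001 to 109571726, 109603940 to 109661716 and 109729764 to 109749460), in the *Dlk1*-*Dio3* imprinted region, and are read from the maternal copy. *Rian* is the host of box C/D small nucleolar RNAs and *Mirg* of a microRNA cluster. In the RefSeq table for GRCm38.p6, 3 mature microRNAs lie within *Meg3*, 6 within *Rian* and 26 within *Mirg*. These are shown because the hosts are what was counted and the mature products are not analysed here. Among the 26 names within *Mirg* there are 25 seeds, and miR-453 and miR-496a-5p form the pair that shares one, while each other name within these 3 hosts has a seed of its own. Capitals mark the seed, bases 2 to 8.

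Meg3, mmu-miR-770-5p: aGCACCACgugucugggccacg
Rian, mmu-miR-370-3p: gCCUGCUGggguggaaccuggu
Mirg, mmu-miR-134-5p: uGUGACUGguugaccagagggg
Mirg, mmu-miR-453: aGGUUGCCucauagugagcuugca
Mirg, mmu-miR-496a-5p: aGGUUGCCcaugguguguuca

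*Meg3* had between 1037 and 4287 CPM in the transgene libraries, with a median of 2123, and between 1273 and 2666 CPM in the controls, with a median of 1892. Transgene 4 and 1 lay above every control and transgene 6 below every control, so the transgene group spread past the controls on both sides. Its log2 fold change was 0.24 ± 0.23 over all libraries (edgeR adjusted p = 0.418) and 0.42 ± 0.38 within lane 4 (edgeR adjusted p = 0.46). Without transgene 4 the value over all libraries was 0.017. With the share of reads on several features as a covariate *Meg3* was called higher (0.58 ± 0.20, edgeR adjusted p = 0.03). With the share of reads outside features as a covariate, the added alternative, it was called higher by 0.66 ± 0.13 (edgeR adjusted p = 0.000529), and 0.59 ± 0.15 within lane 4 (edgeR adjusted p = 0.0168). The row with most of its counts, ENSMUST00000146701.7, changed by 0.26 ± 0.23 and was not called. A spliced row, ENSMUST00000143836.7, was called higher (0.59 ± 0.23, edgeR adjusted p = 0.0456) but leaving out any of 12 of the 17 libraries in turn ended that call, and without transgene 4 the value was 0.30.

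*Rian* had between 304 and 440.1 CPM in the transgene libraries, with a median of 354, and between 278 and 383 CPM in the controls, with a median of 307. Transgene 1 and 4 lay above all controls and the others among them. Its log2 fold change was 0.21 ± 0.08 (edgeR adjusted p = 0.0483) over all libraries and 0.21 ± 0.13 within lane 4, where it was not called (edgeR adjusted p = 0.273). Leaving out any of 10 of the 17 libraries in turn ended the call, and scaling by library size alone gave 0.10 (edgeR adjusted p = 0.396). Of its 11 tested rows of 14 a single row was higher, ENSMUST00000181253.8, which covers the 3′ part of the gene and held most of its counts (236 ± 22.97 CPM in transgene libraries and 191 ± 18.9 CPM in controls, 0.30 ± 0.07, edgeR adjusted p = 0.00211). Scaling by library size alone gave that row 0.16 and ended its call (edgeR adjusted p = 0.0934). The next rows in level, ENSMUST00000180876.2 and ENSMUST00000182981.7, changed by 0.08 ± 0.16 and 0.19 ± 0.10 and were not called.

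*Mirg* had between 1.48 and 12.2 CPM in the transgene libraries, with a median of 3.69, and between 3.26 and 13.0 CPM in the controls, with a median of 8.35. Transgene 1 and 4 stood at 12.2 and 11.1 CPM and the other 4 at 1.48 to 4.00 CPM, near or under the lowest control. The log2 fold change was -0.50 ± 0.36 over all libraries (edgeR adjusted p = 0.278) and 0.05 ± 0.58 within lane 4 (edgeR adjusted p = 0.964), on 25 to 239 counts per transgene library and 70 to 283 per control. Of its 3 tested rows of 5, ENSMUST00000182499.7 was lower (-1.16 ± 0.40, edgeR adjusted p = 0.0218), while ENSMUST00000181496.1 and ENSMUST00000182185.7 changed by -0.51 ± 0.39 and 0.03 ± 0.33 and were not called. The lower row had 0.416 ± 0.247 CPM in transgene libraries and 0.945 ± 0.428 CPM in controls, and its call ended without transgene 2, 5 or 6.

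Of the protein-coding and other genes of this region 2 of 11 tested were higher and 1 lower (median log2 fold change 0.04). *Begain*, a postsynaptic density protein upstream of *Dlk1*, had 21.8 ± 0.772 CPM in transgene libraries and 8.63 ± 2.52 CPM in controls without overlap (1.34 ± 0.16, edgeR adjusted p = 1.77e-06). *Dio3*, which inactivates thyroid hormone, had 1.90 ± 1.03 CPM in transgene libraries and 0.364 ± 0.376 CPM in controls (2.38 ± 0.56, edgeR adjusted p = 0.00172), and *Slc25a29*, a mitochondrial carrier, was lower (-0.74 ± 0.14). The paternally read *Dlk1*, a Notch-related ligand, and *Rtl1*, a retrotransposon-derived gene, were not called, with 2.08 ± 1.301 and 8.03 ± 3.66 CPM in transgene libraries and 3.29 ± 2.42 and 7.83 ± 2.06 CPM in controls. In lane 4 *Begain* (0.99 ± 0.14) and *Slc25a29* (-0.58 ± 0.18) were called and *Dio3* was not (edgeR adjusted p = 0.0788).

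*Snhg14* (chromosome 7, 59307924 to 59975759, minus strand) is a paternally read transcript that runs from the *Snrpn* side through the *Snord116* and *Snord115* small nucleolar RNA clusters to lie antisense to *Ube3a*, whose paternal copy it is known to silence in neurons. Summed over its rows it had between 82.9 and 165 CPM in the transgene libraries, with a median of 119, and between 94.5 and 213 CPM in the controls, with a median of 155. The groups overlapped, with transgene 6 below every control and transgene 4 among the higher controls. Its log2 fold change was -0.42 ± 0.16 over all libraries (edgeR adjusted p = 0.0324) and -0.11 ± 0.20 within lane 4 (edgeR adjusted p = 0.734). The fall was -0.09 ± 0.19 with lane as a factor and -0.10 ± 0.09 with the share of reads outside features as a covariate, neither called. The latter fit was the unplanned alternative.

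The rows of *Snhg14* differed along the gene. Of 12 rows 10 were tested, 7 of them lower and none higher, in a table where 44.8% of 23353 rows were called and 21.1% were lower. The 6 tested rows from 71.1 to 309 kb downstream of the 5′ end, which lie over 59666434 to 59904686, were all lower, by log2 values from -0.996 to -1.77. RefSeq places its 18 *Snord116* genes at 59675990 to 59904848 on the same build, and single rows of the 6 span between 2 and 56 annotated small nucleolar RNAs, while 3 of the 6 hold no *Snord116* gene. In that stretch the row with the largest change, ENSMUST00000191191.1, had 3.26 ± 1.24 CPM in transgene libraries and 11.2 ± 3.33 CPM in controls. At the 5′ end, the row with most counts of the gene, ENSMUST00000189581.6, had 66.8 ± 9.91 CPM in transgene libraries and 64.4 ± 11.3 CPM in controls and was not called (0.05 ± 0.12, edgeR adjusted p = 0.748). ENSMUST00000188976.1, which overlaps it within 6.18 kb of the 5′ end, was lower without overlap of the groups (10.6 ± 1.07 CPM in transgene libraries and 15.7 ± 2.09 CPM in controls, -0.57 ± 0.10, edgeR adjusted p = 0.000129), as were 4.13% of all rows. Farther down, ENSMUST00000188262.1 had 21.8 ± 11.9 CPM in transgene libraries and 29.4 ± 9.96 CPM in controls (-0.43 ± 0.27, edgeR adjusted p = 0.219), and the last row, antisense to *Ube3a*, had 2.28 ± 0.962 and 2.54 ± 0.939 CPM and was not called. With lane as a factor 2 of the 6 middle rows were called lower, and their values ran from -0.36 to -1.18. A difference between rows within a gene was not itself tested, several of the 6 rows overlap, and reads on several rows were not counted for any.

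**Figure D3:**
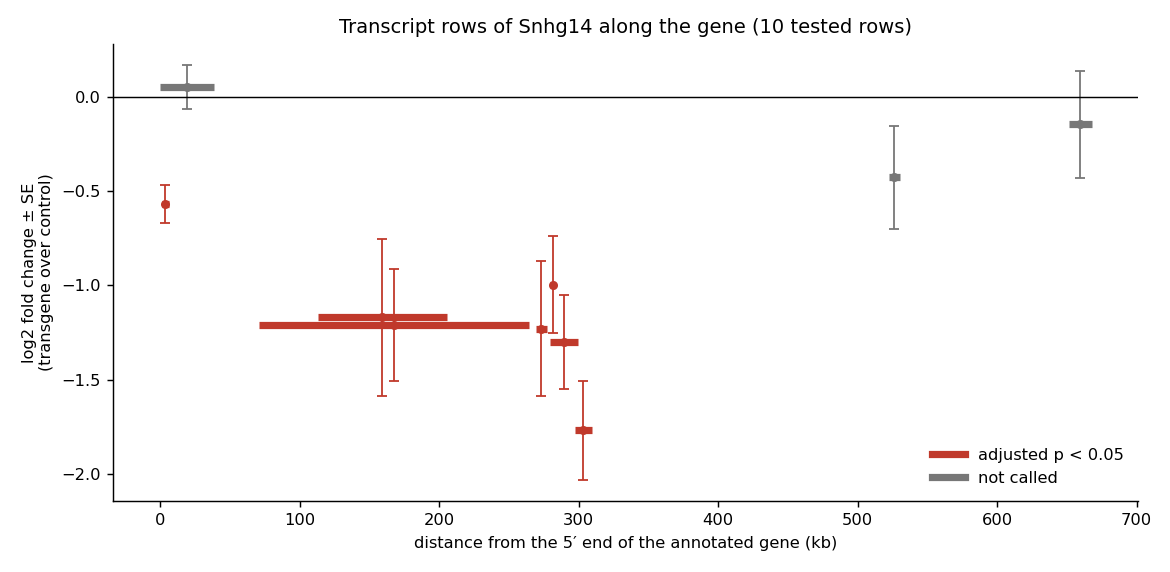
Log2 fold change ± SE, transgene over control (vertical axis), of the 10 tested rows of *Snhg14* against their distance in kb from the 5′ end of the annotated gene; horizontal bars give the span of each row, and red marks an adjusted p under 0.05. The 6 rows between 71.1 and 309 kb sit at -0.996 or lower, and the row with most counts, at the 5′ end, sits at 0.05.

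Of the genes around *Snhg14* 3 of 11 tested were higher and 2 lower (median log2 fold change 0.23). *Ube3a*, the ubiquitin ligase opposite *Snhg14*, had 66.6 ± 5.07 CPM in transgene libraries and 63.3 ± 8.55 CPM in controls (0.07 ± 0.09, edgeR adjusted p = 0.5), and *Snrpn*, a splicing protein gene, 357 ± 40.3 and 304 ± 54.8 CPM (0.23 ± 0.12, edgeR adjusted p = 0.133). *Gabrg3*, a GABA-A receptor subunit gene, had 60.8 ± 11.2 CPM in transgene libraries and 18.4 ± 6.72 CPM in controls without overlap (1.73 ± 0.21, edgeR adjusted p = 2.39e-06) and *Gabra5*, another subunit gene, changed by 1.24 ± 0.25. *Mkrn3*, a paternally read ring finger gene, was lower (-0.65 ± 0.22). In lane 4 *Gabrg3* (1.40 ± 0.24) was called, and *Gabra5* and *Mkrn3* were not, with edgeR adjusted p-values of 0.126 and 0.131.

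*Peg13* (chromosome 15, 72805600 to 72810324, minus strand) is a paternally read transcript of 1 exon within an intron of *Trappc9*, a trafficking protein gene on the same strand, from whose intronic reads it cannot be told apart. It had between 556 and 733 CPM in the transgene libraries, with a median of 675, and between 696 and 928 CPM in the controls, with a median of 769. The spread was the smallest of the 10 genes in both groups, with coefficients of variation of 9.51% and 7.94%, and transgene 4, 5, 6 and 1 lay below every control. Its log2 fold change was -0.21 ± 0.07 (edgeR adjusted p = 0.0156) over all libraries and -0.28 ± 0.12 within lane 4 (edgeR adjusted p = 0.115). The call ended without transgene 4 (-0.13, adjusted p = 0.0982), 5 or 6. With the neuron marker sum *Peg13* had r = 0.44 in the 6 transgene libraries (exact permutation p = 0.414) and r = 0.85 in the 11 controls (permutation p = 0.00486, adjusted p = 0.0466 over 70 relations; rho = 0.60, adjusted p = 0.28). Without the 2 farthest controls r was 0.44, and in the 6 lane 8 controls 0.82 (exact permutation p = 0.0153). Around it, 2 of 6 tested genes were higher and 2 lower, with a median of 0.00. *Trappc9* (2.94 ± 0.470 CPM in transgene libraries and 4.35 ± 0.742 CPM in controls) and *Kcnk9*, a maternally read potassium channel gene of the brain, were lower by log2 values of -0.56 ± 0.14 and -0.48 ± 0.15. *Ptk2*, focal adhesion kinase, and *Col22a1*, a collagen gene, were higher by 0.90 ± 0.12 and 1.04 ± 0.32. *Ptk2* (1.01 ± 0.16) and *Kcnk9* (-0.80 ± 0.21) were also called within lane 4.

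*Snhg11* (chromosome 2, 158375638 to 158386145, plus strand) is a host of small nucleolar RNAs in neurons, and GENCODE gives its gene the type protein-coding. It had between 636 and 2265 CPM in the transgene libraries, with a median of 1265, and between 692 and 1724 CPM in the controls, with a median of 1333. Transgene 4 and 1 lay above every control and transgene 6 below every control, as for *Meg3*. The log2 fold change was 0.17 ± 0.22 over all libraries (edgeR adjusted p = 0.544) and 0.38 ± 0.35 within lane 4 (edgeR adjusted p = 0.479). With the share of reads outside features as a covariate *Snhg11* was called higher over all libraries (0.57 ± 0.14, edgeR adjusted p = 0.00401). That alternative was unplanned and was added once results were known. Within lane 4 *Snhg11* was called under none of 19 alternatives. Of the other genes listed by name as small RNA hosts 4 of 19 tested were higher and 5 lower, near the 23% and 24.4% of all tested genes, with a median of -0.15. Small RNAs within these listed genes were not looked up. *Mirt1*, a long noncoding RNA gene not shown here to host small RNAs, was lower (2.26 ± 1.64 CPM in transgene libraries and 13.0 ± 4.72 CPM in controls, -2.52 ± 0.52). *Mir124a-1hg*, a host of the neuronal microRNA miR-124 (-1.13 ± 0.30), and *Dleu2* (-0.76 ± 0.23) were also lower, and *Mir22hg* was higher without overlap (1.06 ± 0.11). Within lane 4 *Mir22hg* (0.94 ± 0.16) was called and the other 3 were not, with edgeR adjusted p-values of 0.127, 0.375 and 0.767.

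Other long noncoding RNA genes gave 6 higher and 8 lower of 27 tested, with a median of -0.19, beside 47.4% of all tested genes called. The largest called changes were in transcripts beside regional transcription factors. *Hotairm1*, antisense in the *Hoxa* cluster, had 0.175 ± 0.224 CPM in transgene libraries and 4.44 ± 3.41 CPM in controls (-4.60 ± 0.68, edgeR adjusted p = 2.49e-05), and *Lhx1os* 2.44 ± 3.54 and 47.6 ± 16.04 CPM (-4.29 ± 0.60, edgeR adjusted p = 1.23e-05), both without overlap. *Six3os1*, opposite the forebrain gene *Six3*, was higher (2.52 ± 0.74), and the imprinted *H19* was lower (-2.12 ± 0.43). Other imprinted genes were higher in 1 and lower in 8 of 25 tested, with a median of -0.18. *Nap1l5*, a nucleosome assembly protein gene of neurons, had 578 ± 97.1 CPM in transgene libraries and 866 ± 162 CPM in controls (-0.58 ± 0.12, edgeR adjusted p = 0.000662). *Ddc*, the enzyme that makes dopamine and serotonin, *Asb4* and *Dcn*, the proteoglycan decorin, were lower by log2 values of -0.92 ± 0.35, -0.89 ± 0.35 and -0.62 ± 0.22. Within lane 4 *Nap1l5* and *Ddc* were called, and *Asb4* and *Dcn* were not, with edgeR adjusted p-values of 0.0855 and 0.225.

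Lane 8 controls were set against lane 4 controls to see how far the genes vary without the transgene. None of the 10 was called, nor was any of the 19384 genes tested (0%; edgeR), while DESeq2 called 1 gene, and at an unadjusted p under 0.05 edgeR gave 2 of the 10 and 1543 of all genes. No gene of the 10 had lane groups without overlap, as 2.62% of all genes did (1.59% with lane 8 higher). *Mirg* (9.21 ± 2.96 CPM in lane 8 and 5.68 ± 2.31 CPM in lane 4, n = 6 and 3), *Malat1* (1519 ± 494 and 996 ± 368 CPM) and *Snhg14* (179 ± 30.8 and 127 ± 28.2 CPM) had log2 differences of 0.70 ± 0.33, 0.61 ± 0.32 and 0.50 ± 0.18, with an edgeR adjusted p of 0.581 each. *Neat1* differed the other way, with 58.0 ± 10.96 CPM in lane 8 and 82.8 ± 26.0 CPM in lane 4 (-0.50 ± 0.22). For *Malat1*, *Mirg* and *Snhg14* these differences were larger than the changes of -0.29, -0.50 and -0.42 seen over all libraries. The differences for *Pantr1* (-0.10 ± 0.28) and *Miat* (-0.10 ± 0.44) were small beside their changes with the transgene. Which library was left out mattered here: without control 8, 88 genes were called, none of them among the 10.

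Among the 11 controls, 5 of the genes rose and fell together from library to library: *Malat1*, *Meg3*, *Mirg*, *Snhg11* and *Snhg14*, a group named after its values were seen. In the 6 transgene libraries their 10 pairs had a Pearson r between 0.55 and 0.98, and without the 2 farthest libraries between -0.89 and 1.00. Of 45 pairs of members 6 were called there, all positive and all among *Meg3*, *Mirg*, *Snhg11* and *Miat*. The highest joined *Meg3* and *Miat* with r = 0.98 and rho = 1 (exact permutation p = 0.00139, the smallest that 6 libraries allow; adjusted p = 0.0417), against 0.59 among controls, and the difference between the groups was not tested. Among the 11 controls the 10 pairs had a Pearson r between 0.79 and 0.92 and a Spearman rho between 0.73 and 0.95, and all 10 were called among 13 of 45 (permutation p adjusted over 45, at most 0.012; adjusted Spearman p at most 0.056). Without the 2 libraries farthest from the median r was between 0.57 and 0.88. Within the 6 lane 8 controls r lay between 0.79 and 0.97, but no pair of 45 was called there (0 with an adjusted p under 0.05, 13 with an unadjusted p under 0.05; exact permutation tests). *Peg13* ran against *Malat1* (r = -0.70), *Meg3* (r = -0.79) and *Snhg11* (r = -0.80) among controls, and after the 2 farthest libraries were left out r was -0.25, -0.61 and 0.00, so that for *Malat1* and *Snhg11* the relation rests on those libraries. Scaling by library size alone left 10 called pairs, none of them with *Peg13*. *Miat* and *Pantr1* had r = -0.13 among transgene libraries and 0.71 among controls (permutation p = 0.0173, adjusted p = 0.0556).

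**Figure D4:**
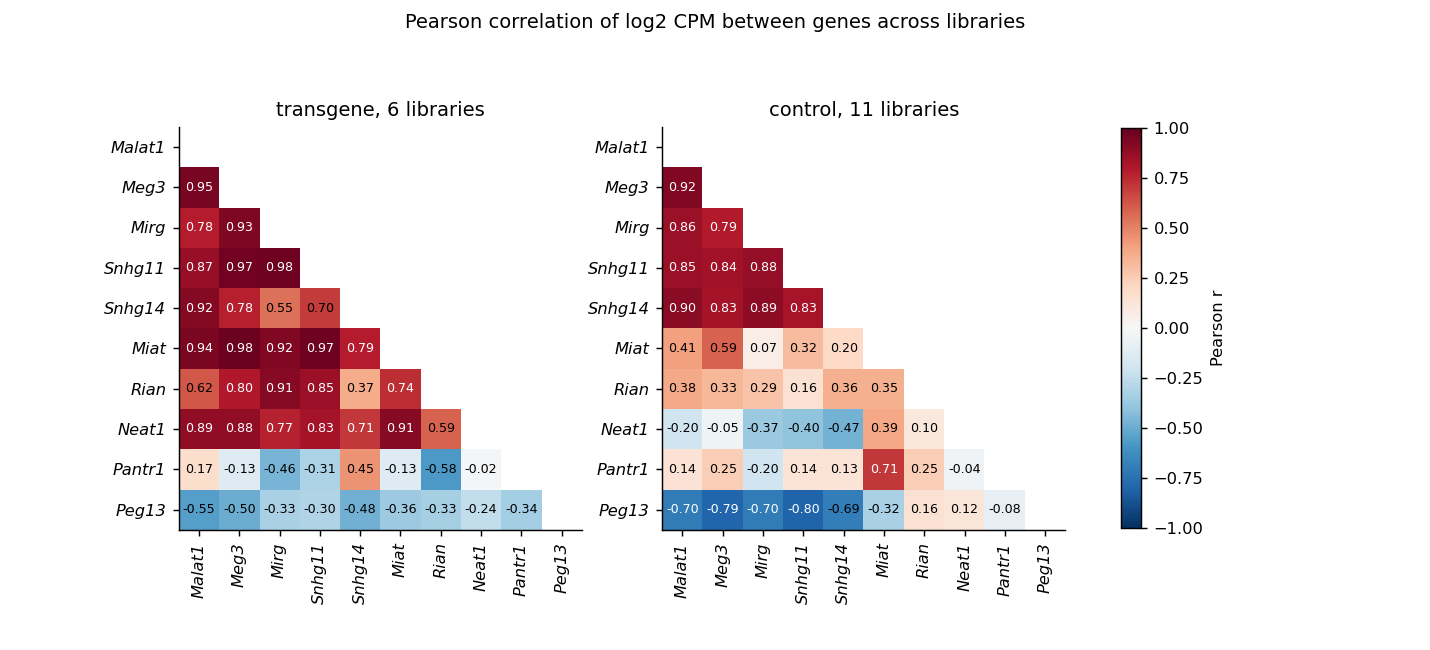
Pearson correlation of log2 CPM across libraries for each of the 45 pairs of the 10 genes, in the 6 transgene libraries (left) and the 11 controls (right), with red for positive and blue for negative values. In the controls the block of *Malat1*, *Meg3*, *Mirg*, *Snhg11* and *Snhg14* holds values of 0.79 to 0.92, and *Peg13* is negative against all 5.

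The same 5 genes followed the share of a library's reads that lay outside any counted feature. In the 6 transgene libraries *Malat1* had r = 1.00 to 2 decimals with that share (rho = 0.94, exact permutation p = 0.00278, adjusted p = 0.178 over 70 relations; 0.98 without the 2 farthest). In the 11 controls it had r = 0.98 and rho = 0.97 (permutation p = 1e-05, the smallest that 100000 resamples can give; adjusted p = 0.0007 over 70 relations), and r was 0.96 without the 2 libraries farthest from the median. In the 6 lane 8 controls r was 0.99 (exact permutation p = 0.00139, adjusted p = 0.0972). *Meg3*, *Mirg*, *Snhg11* and *Snhg14* had r between 0.81 and 0.96 in the transgene libraries, not called after adjustment, and between 0.87 and 0.89 in the controls, all called. Without the 2 farthest libraries r in the transgene group was 0.74, 0.30, 0.31 and 0.15 for these 4 genes, so that there the relation of *Mirg*, *Snhg11* and *Snhg14* rests on 2 libraries, and in the controls it was between 0.72 and 0.81. *Miat* and *Neat1* had r = 0.94 and 0.88 in the transgene libraries and 0.33 and -0.21 in the controls, and *Pantr1* had 0.14 and 0.045, none of them called. Transgene 6 had the lowest share of all, 5.29%, with the lowest *Malat1*, *Meg3*, *Mirg*, *Snhg11* and *Snhg14* of its group, and transgene 4 the highest of its group, 9.59%, with the highest *Malat1*, *Meg3*, *Snhg11* and *Snhg14*. The share was 7.44% ± 1.43 in transgene libraries and 8.98% ± 1.41 in controls (exact two-sided permutation p = 0.0496), and 8.06% ± 1.41 in the lane 4 controls (exact p = 0.583). The content of these reads was not analysed here, and their part in the changes of the 5 genes was not tested beyond the covariate fits given above. The share followed these genes and differed between the groups over all libraries, so those fits do not test it apart from the transgene.

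**Figure D5:**
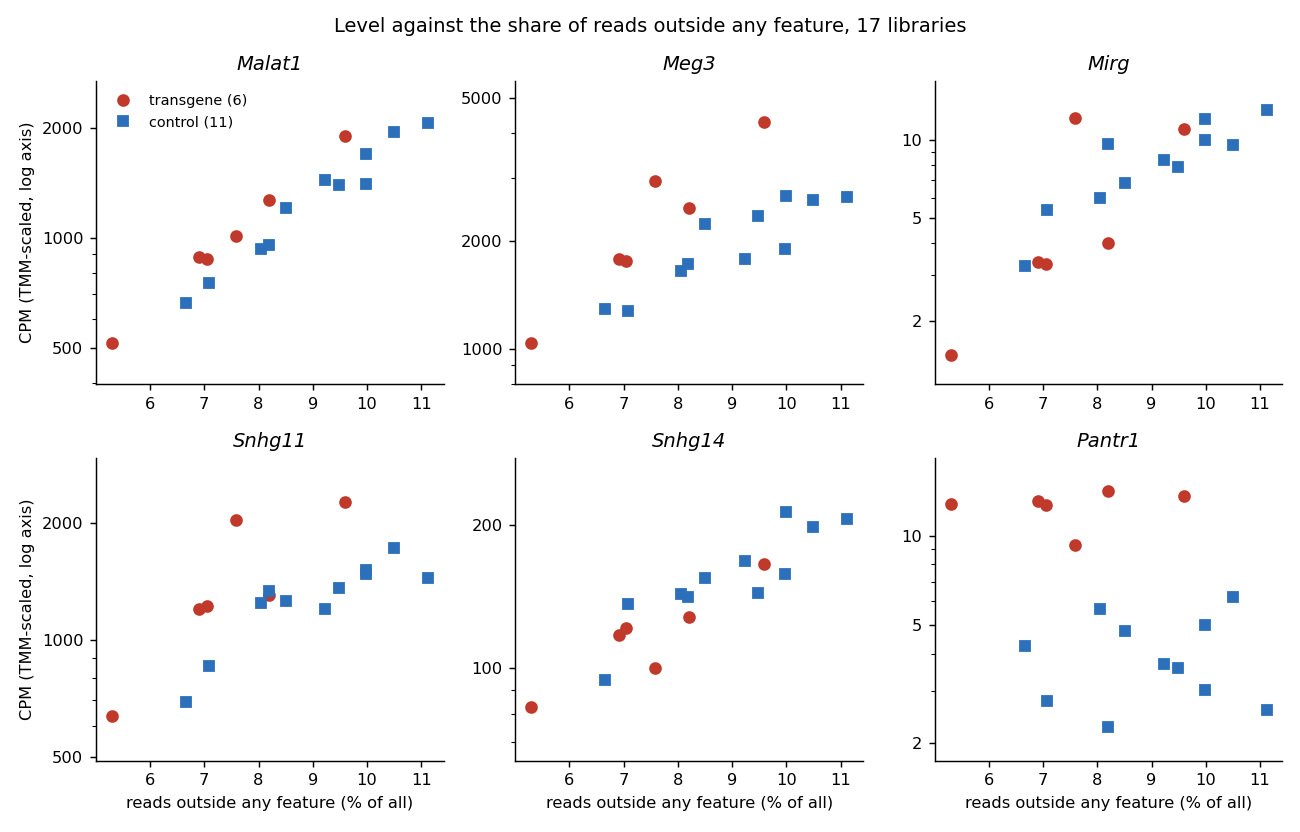
Level in CPM (vertical axes, log scale) of 6 of the genes against the percent of all reads outside any feature (horizontal axes) in 6 transgene (red circles) and 11 control (blue squares) libraries. *Malat1* lies along a line in both groups, with correlations of 1.00 and 0.98, while *Pantr1* separates the groups at every share.

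Promoters of *Malat1*, *Meg3* and *Snhg11*, which are among the 5 genes that moved together in the controls, are shown for comparison. They are from RefSeq (GRCm38.p6, 250 bases before to 50 after the start, 5′ to 3′ on the gene's strand). A part of promoter sequence in the shared movement was not tested. Capitals mark matches on either strand to TATAAA (found in 13.6% of 32817 promoters of this length), CCAAT (37.4%), TGACGTCA, the cyclic AMP response element (1.79%), and GGGCGG (35.6%). The shown *Meg3* promoter holds 2 overlapping TATAAA matches on opposite strands, 1 CCAAT and 1 TGACGTCA, and *Malat1* and *Snhg11* hold none of the 4 motifs. A second *Meg3* promoter, chr12:109545148-109545447, is not shown and holds none of them. The *Meg3* row with most counts, ENSMUST00000146701.7, begins at 109545398, within that second window. The promoters of *Mirg* and *Snhg14*, also not shown, hold 1 and 2 CCAAT matches and none of the other motifs. Of the shown promoters *Snhg11* had the most CG pairs, 21, with 13 in *Meg3* and 10 in *Malat1*. The shown windows are chr19:5802623-5802922 on the minus strand, chr12:109540746-109541045 on the plus strand and chr2:158375463-158375762 on the plus strand.

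Malat1 promoter: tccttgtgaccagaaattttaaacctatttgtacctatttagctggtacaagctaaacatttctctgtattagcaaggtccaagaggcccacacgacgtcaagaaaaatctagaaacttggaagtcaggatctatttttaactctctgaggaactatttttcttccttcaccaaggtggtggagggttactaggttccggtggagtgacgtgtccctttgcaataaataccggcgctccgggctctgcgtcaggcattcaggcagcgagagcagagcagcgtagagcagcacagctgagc
Meg3 promoter: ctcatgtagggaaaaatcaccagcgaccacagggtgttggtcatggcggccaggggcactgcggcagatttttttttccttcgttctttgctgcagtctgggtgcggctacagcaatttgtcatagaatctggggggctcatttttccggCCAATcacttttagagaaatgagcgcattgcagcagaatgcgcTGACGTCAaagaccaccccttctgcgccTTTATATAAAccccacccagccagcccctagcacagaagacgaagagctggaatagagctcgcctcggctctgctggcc
Snhg11 promoter: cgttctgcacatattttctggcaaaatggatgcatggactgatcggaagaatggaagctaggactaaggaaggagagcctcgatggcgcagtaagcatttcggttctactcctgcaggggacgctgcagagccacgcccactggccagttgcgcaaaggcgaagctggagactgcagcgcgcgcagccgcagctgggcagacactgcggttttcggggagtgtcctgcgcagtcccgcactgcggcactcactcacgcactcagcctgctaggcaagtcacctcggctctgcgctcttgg

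For each of the 10 genes the 2 genes most like it over the 11 controls were taken by Pearson r from the 7354 genes whose log2 CPM averaged 4 or more. *Malat1* and *Meg3* shared *Zcchc7*, with r of 0.95 and 0.96, and their second genes were *Nisch* (0.96) and *Pabpn1* (0.94). *Snhg11* was most like *Gm48271* (0.97) and *Leng8* (0.95), *Mirg* like *Rufy3* (0.97) and *A230057D06Rik* (0.94), and *Snhg14* like *Nktr* (0.95) and *Cep350* (0.95). *Rian* had the lowest values, with *Ube3a* (0.79) and *Tcaf1* (0.78). *Neat1* was most like the GABA transporter gene *Slc6a11* (0.93) and *Sh3pxd2b* (0.91), *Miat* like the cyclin gene *Ccnd2* (0.93) and *Fnbp1l* (0.93), *Peg13* like *Rrn3* (0.96) and *Rhoa* (0.94), and *Pantr1* like *Vxn* (0.95) and *Mal2* (0.95). In the 6 transgene libraries, which were not used to choose them, *Rufy3* kept 0.97 with *Mirg*, *Zcchc7* 0.96 with *Malat1* and 0.90 with *Meg3*, and *Leng8* 0.92 with *Snhg11*. There *Fnbp1l* had -0.40 with *Miat*, *Mal2* -0.25 with *Pantr1* and *Cep350* 0.00 with *Snhg14*. These values describe the libraries, which share their scaling.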

How the data were processed

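RNA of mouse brain was sequenced in 17 libraries, 6 transgene and 11 control. The authors deposited raw counts per transcript, 68517 rows per library, placed on mm10 per the submitters' processing notes; of aligner, counting program, strand setting and annotation, each is not given in the sources used here. Of 64505 rows with Ensembl names, 64380 matched GENCODE M21 (62415 with the same version). The 5 summary rows at the end of each file entered neither library sizes nor tests; they put 41.2% to 43.4% of reads in transgene and 40.2% to 42.4% in control libraries on several features, so a gene with overlapping rows loses reads. Matched rows were added up per gene, and XLOC and unmatched rows were kept single. Genes were tested with edgeR 4.0.16 (TMM, default filter, quasi-likelihood, R 4.3.3), adjusted over all tested features at 0.05; limma 3.58.1 and DESeq2 1.42.0 were alternatives, with other scalings, filters, covariates, a lane factor, a block and each library left out. SE is the log2 fold change divided by the root of F. Log2 CPM used a prior count of 2. Correlations were computed in Python 3.11.15 with exact or 100000 permutations. The test was tried on simulated data. No library pair agreed within counting noise. The members, lists and rules were chosen with earlier results of these data known. Under these rules the text names all 10 genes, the 3 highest rows of each and rows called against their gene, and up to 4 called genes per list whose log2 CPM averaged 0 or more, except one that is not reported here; rows, partner genes and libraries outside them were named after their values were seen. Precision is limited by the number of libraries, and p-values by the doubt whether libraries are separate animals.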

Additional observations from a re-analysis of the deposited data

Results flagged for a closer look

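With 6 libraries a group, the gap between the extreme library and its neighbour was compared with the range of the group for 63 sets of values (the 10 genes and the read shares in transgene libraries and lane 8 controls, and the other named genes in the transgene libraries), where a ratio above 0.625 singled out a library. Chance alone singles out about 1 in 20. For *Pantr1*, transgene 1 lay below the other transgene libraries, at a log2 CPM of 3.23 with the next library at 3.68, a ratio of 0.744; it still lay above every control. For *Ppp1r16b*, transgene 2 lay above the others, at 3.57 with the next at 2.96, a ratio of 0.634.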

How the results depend on the processing

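*Pantr1* and *Miat* were called higher over all libraries under each of 32 alternatives, with log2 fold changes of 1.49 to 1.92 and 1.37 to 1.95; within lane 4 *Pantr1* was called under each of 19 (1.33 to 1.76) and *Miat* and *Neat1* under 16 each. Over all libraries *Neat1* had an adjusted p under 0.05 under 30 of 32 alternatives and not with the several-feature share as a covariate (-0.50) or without transgene 4 and 6 (-0.54, chosen after seeing the data).

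Of the 10 genes 6 were called over all libraries. The number was 3 with lane as a factor, 2 at a threshold of 0.01 and 3 without transgene 4 and 6. Titles of 8 controls and 1 transgene library end in N, whose meaning the labels do not give. Without transgene 5, which has this ending, and controls 4, 6 and 8, which lack it, the number was 3. Leaving out each library in turn gave 4 to 6. Within lane 4 the number was 3; it was 6 with the share of reads outside features as a covariate and 1 without control 7 and transgene 3, both chosen after seeing the data, and 2 to 3 with each library left out. Among controls by lane it was 0 throughout. Of the 35 tested member rows 17 were called, in a table where 44.8% of all rows were called; the number was 9 with lane as a factor, and 14 to 17 with each library left out. Called pairs of members among controls were 13, and 10 with scaling by library size alone.

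Directions changed under these alternatives, also for values of -0.29 (*Malat1*), -0.50 (*Mirg*) and -0.42 (*Snhg14*). With lane as a factor *Malat1* was 0.11, *Mirg* 0.061, the *Malat1* row 0.14 and the *Mirg* row ENSMUST00000181496.1 0.083. With the share of reads outside features as a covariate *Malat1* was 0.30, *Mirg* 0.072, *Snhg14* within lane 4 0.012, the rows of *Malat1*, *Mirg* (ENSMUST00000181496.1) and *Snhg14* (ENSMUST00000188262.1) 0.33, 0.10 and 0.094, and, among controls by lane, *Meg3* -0.024, *Snhg11* -0.032 and *Peg13* 0.025. With the several-feature share as a covariate *Malat1* was 0.22. With the highest row alone *Snhg14* was 0.050, and 0.22 within lane 4. Without control 7 and transgene 3, *Malat1* and *Mirg* within lane 4 were -0.082 and -0.12, and the *Mirg* row ENSMUST00000182185.7 was -0.029. *Mirg* within lane 4 was -0.013 by library size alone and -0.20 by limma-voom. By library size alone the rows ENSMUST00000180876.2 (*Rian*), ENSMUST00000182185.7 (*Mirg*) and ENSMUST00000189581.6 (*Snhg14*) were -0.047, -0.10 and -0.092, and limma-voom gave the *Mirg* row -0.0030. The causes were not tested.

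With single libraries left out, directions changed within lane 4 for *Malat1* (-0.14 to 0.41) and *Mirg* (-0.29 to 0.34), among controls by lane for *Rian* (-0.0098 to 0.080), *Miat* (-0.36 to 0.24), *Peg13* (-0.15 to 0.041) and *Pantr1* (-0.24 to 0.099), and for the rows ENSMUST00000180876.2 (-0.061 to 0.20), ENSMUST00000182185.7 (-0.24 to 0.21) and ENSMUST00000189581.6 (-0.010 to 0.11). Calls over all libraries were lost for *Rian* in 10, *Snhg14* in 7 and *Peg13* in 3 of 17 such fits.

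Title numbers shared by the groups were not taken to pair the libraries, by a rule that asked every same-numbered pair for deviations correlated above 0.1. The 9 pairs ran from -0.32 to 0.24 with a median of 0.12, beside a median of 0.0072 over 57 other pairs. The labels do not give the meaning of the numbers, and whether they mark pairs cannot be told from these values. With the number as a replicate block 5 of the 10 genes (without *Snhg14*, -0.33, edgeR adjusted p = 0.0697) and 16 member rows were called, 3 genes within lane 4, where *Mirg* was -0.62 and 3041 of all genes were called, beside 4936 without the block. With lane as a factor 5887 of all genes and 6576 of all rows were called.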
